A study of Mus musculus with 8 samples.

Results

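The 40 genes described here are mouse counterparts of genes mutated in inherited motor neuron disease or in axonal neuropathy. They were picked by symbol from the 38924 genes in the expression tables, and all 40 were found. By disease, 28 belong to amyotrophic lateral sclerosis (ALS), 5 to spinal muscular atrophy and distal motor neuropathy, and 7 to axonal Charcot-Marie-Tooth neuropathy. By role, 12 act in RNA binding, splicing, export or tRNA modification, 8 in ubiquitin and autophagy, 8 in membrane trafficking, 4 in mitochondria or superoxide removal, 5 in the cytoskeleton or as other enzymes, and 3 at the cell surface.

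ALS destroys the motor neurons of the cortex, brainstem and spinal cord, spinal muscular atrophy those of the spinal cord and brainstem, and axonal Charcot-Marie-Tooth neuropathy the long axons of motor and sensory neurons. The mutated genes are mostly expressed in many cell types, and they cluster in RNA metabolism, protein clearance, transport along axons and mitochondrial upkeep. Demyelinating forms of Charcot-Marie-Tooth neuropathy arise instead from genes that act largely in the myelinating Schwann cell.

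RNA on ribosomes was sequenced from whole spinal cords of 8 mice (strain background B6.CgxB6.129, Gars+/+), all heterozygous for an HA-tagged Rpl22, a ribosomal protein that carries its tag only where Cre recombinase has acted. In the Cre groups, Chat-Cre (entered as Chat +/-) places the tag in cholinergic cells, which are motor neurons and also some interneurons and autonomic neurons. The no-Cre groups (Chat +/+) show which RNA comes down with the anti-HA antibody when no ribosome is tagged, and they are not samples of total cord RNA. Each of the 4 groups holds 2 animals: Cre uncrushed 3 and 10 (8 weeks old), Cre crushed 35 (18 weeks) and 52 (9 weeks), no-Cre uncrushed 4 and 6 (8 weeks) and no-Cre crushed 51 and 58 (9 weeks).

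Crushed mice had the sciatic nerve crushed on 1 side, and the whole cord, with the uninjured side, was used. No crushed mouse was as young as the uncrushed mice, so crush and age cannot be told apart. The uncrushed titles also carry a number in common, of unstated meaning, that is missing from the crushed titles. The genotype entry went against the title for Cre uncrushed 3 (Chat +/+) and no-Cre uncrushed 4 (Chat +/-). Summed levels of 9 cholinergic and motor neuron markers were 2542 CPM (counts scaled to a common library total) in Cre uncrushed 3 and 195 in no-Cre uncrushed 4, so the titles were used for grouping and results are also given without both libraries.

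Library totals ran from 4826979 to 11522721 expected counts, and 3 counts corresponded to 0.19 to 1.17 CPM. Summed motor neuron markers were at 2140 to 2542 CPM with Cre and 125 to 199.8 without, with all 9 genes higher. In the opposite direction, summed oligodendrocyte markers were at 719.9 to 1854 CPM with Cre and 4686 to 7913 without (8 of 8 genes lower), astrocyte markers at 419 to 713.8 and 1863 to 3355 (7 of 7 lower), microglial markers at 19.77 to 28.96 and 95.53 to 177.4 (9 of 9 lower) and endothelial markers at 29.22 to 48.81 and 230.4 to 330.7 (7 of 7 lower). Schwann cell markers were at 17.92 to 57.76 and 146.4 to 430.3 (5 of 5 lower), and interneuron markers at 180.9 to 269.2 and 464.3 to 657.9 (5 of 6 lower). Sensory neuron markers were at 212.3 to 441.2 and 9.907 to 49.91, through Calca, which motor neurons also express. None of the listed markers was at 0 in all libraries. Mitochondrial ribosomal RNA took 1.61 to 5.53% of counts with Cre and 11.47 to 48.21% without. These marker levels moved with every Cre comparison below, and their part in the level of any 1 gene was not tested. In such bulk precipitates, fewer cells of a type and less RNA per cell cannot be told apart.

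Promoter sequence is shown for the members with the smallest p in each direction between Cre and no-Cre libraries, Lrsam1 and Sod1 (higher with Cre) and Tia1 and Erbb4 (lower with Cre), so that genes at both ends can be compared. Each line gives the 250 bases before the annotated start in RefSeq's annotation of mouse build GRCm38.p6, read 5′ to 3′ on the gene's strand. Lrsam1 lies at chr2:32961642-32961891 (minus strand), Sod1 at chr16:90220512-90220761 (plus), Tia1 at chr6:86403969-86404218 (plus) and Erbb4 at chr1:69108060-69108309 (minus). Capitals mark matches on either strand to any of 5 short motifs. These were the GC box GGGCGG, whose neighbouring matches can overlap, the CCAAT box written with those letters, the TATA box as TATAAA, the E-box as CACGTG and the cAMP response element as TGACGTCA.
Lrsam1: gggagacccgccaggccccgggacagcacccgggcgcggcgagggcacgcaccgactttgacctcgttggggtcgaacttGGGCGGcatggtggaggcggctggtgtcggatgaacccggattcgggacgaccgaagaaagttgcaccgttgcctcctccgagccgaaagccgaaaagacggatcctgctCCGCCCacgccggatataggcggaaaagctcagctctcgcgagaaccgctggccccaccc
Sod1: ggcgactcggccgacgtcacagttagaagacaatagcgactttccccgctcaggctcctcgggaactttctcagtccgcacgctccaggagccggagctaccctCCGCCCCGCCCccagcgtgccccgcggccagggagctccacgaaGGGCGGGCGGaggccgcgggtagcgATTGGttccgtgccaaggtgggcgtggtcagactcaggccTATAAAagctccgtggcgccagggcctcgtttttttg
Tia1: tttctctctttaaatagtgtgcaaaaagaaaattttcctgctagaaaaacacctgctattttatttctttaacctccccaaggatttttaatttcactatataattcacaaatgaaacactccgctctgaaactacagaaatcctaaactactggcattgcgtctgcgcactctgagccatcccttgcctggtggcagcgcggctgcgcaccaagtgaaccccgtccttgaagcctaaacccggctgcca
Erbb4: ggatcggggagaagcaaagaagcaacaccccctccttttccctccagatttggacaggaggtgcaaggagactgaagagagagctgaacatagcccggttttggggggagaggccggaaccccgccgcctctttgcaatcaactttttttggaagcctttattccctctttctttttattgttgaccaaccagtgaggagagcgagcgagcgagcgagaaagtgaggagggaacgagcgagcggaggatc

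The Lrsam1 window held 2 GGGCGG matches, and the Sod1 window held 4 together with 1 TATAAA and 1 CCAAT match. No match to the 5 motifs was found in the Tia1 and Erbb4 windows. G and C made up 67.2% of the Lrsam1 window, 66.4% for Sod1, 44.0% for Tia1 and 54.0% for Erbb4, where the median over all promoters was 52.4%. A promoter was on hand for 34 of the 40 members. For 25 of them, the 30 bases after a listed start occurred in a GENCODE M21 transcript of the same gene. Each of the 34 members was counted by 1 listed start, whereas the 32851 promoters were all starts listed. GGGCGG occurred in 22 of these 34 (64.7%) and in 32.7% of 32851 promoters of the same length. CCAAT occurred in 35.3% and 33.8%, TATAAA in 8.82% and 12.4%, CACGTG in 2.94% and 6.02% and TGACGTCA in 0% and 1.55%. These are matches of letters and were not set against the expression values by a test.

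Levels of different members were compared in TPM, the authors' unit of transcripts per library scaled for transcript length and depth. The median member stood at 32.75 TPM over the 4 Cre libraries, and 36 of the 40 were above 3.102 TPM, the median of the 21344 genes detected there. Sod1, the cytosolic superoxide dismutase and a founding ALS gene, was highest, at 1519 and 1105 TPM in the Cre uncrushed and 1920 and 1523 in the Cre crushed libraries. Rab7 followed at 744, 513, 988 and 824 TPM and Hint1 at 693, 665, 532 and 402 TPM in the same order, so that the ranges of these neighbours overlapped while Sod1 lay above both. Sqstm1 came next, at 229 to 489 TPM. In all, 11 members had a median of at least 100 TPM and 30 of at least 10 TPM. The lowest were Trpv4 (median 0.14 TPM), Ccnf (0.445), Erbb4 (2.335) and Spg11 (2.48).

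**Figure D1:**
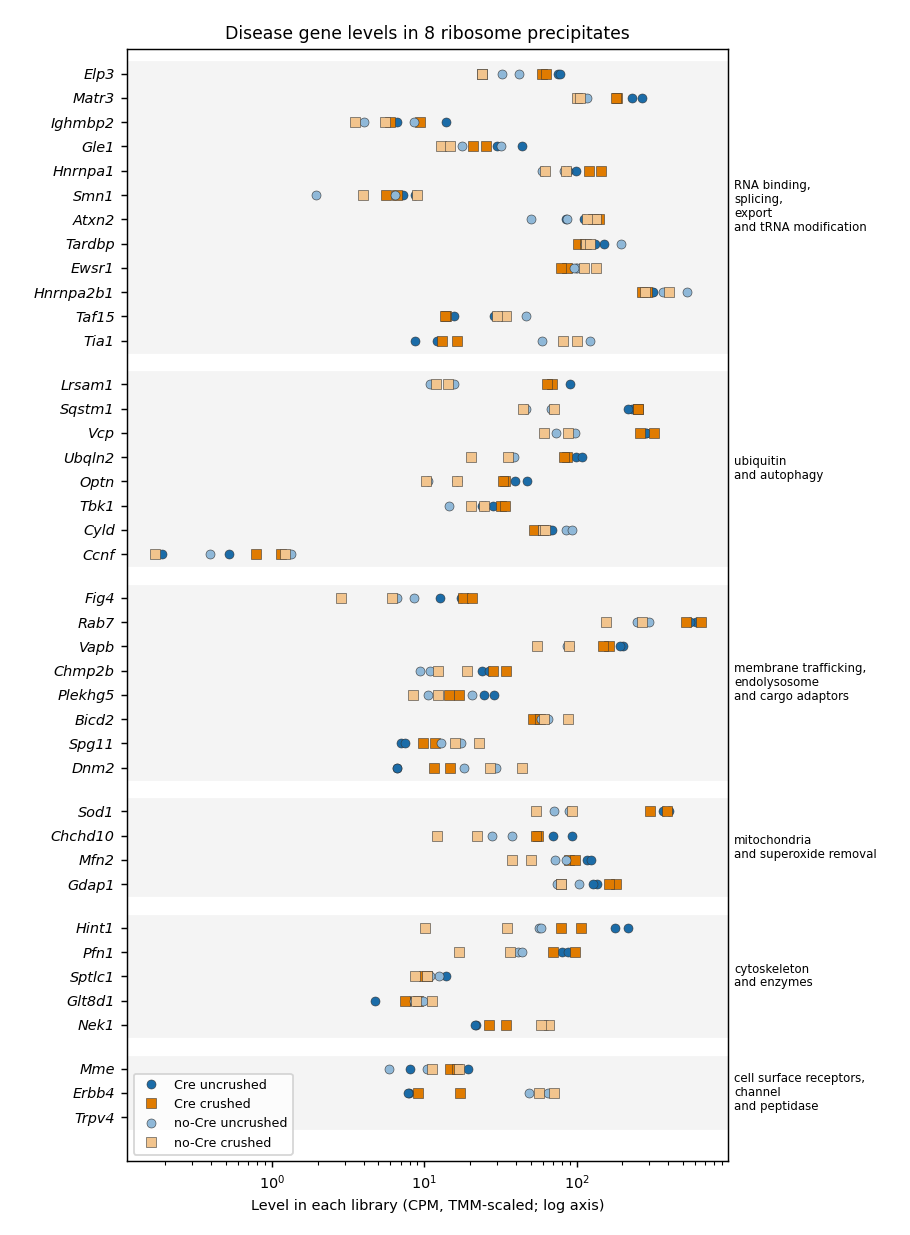
Levels of 39 disease genes in each of the 8 libraries, in CPM on a log axis, grouped by role (rows), with circles for uncrushed and squares for crushed mice, dark with Cre and pale without. Trpv4, with 0 to 5 counts a library, is named but not plotted. Lrsam1, Sod1 and Sqstm1 separate fully to the right with Cre, Tia1 and Erbb4 fully to the left, and Tardbp and Smn1 overlap.

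The first comparison asked which disease genes were on tagged ribosomes above the untagged background. A gene was called at an adjusted p of at most 0.05 in edgeR's quasi-likelihood test with Benjamini-Hochberg adjustment over all genes tested, and log2 fold changes, Cre over no Cre, are given with an approximate standard error. Of the 39 members with enough counts to test, 20 were higher and 6 lower with Cre over all 8 libraries, in a fit that also had a term for crush. That is 66.7% called, where 59.9% of all 15208 genes tested were called. The directions of the members were 51.3% higher against 28.7% of all genes, and 15.4% lower against 31.2%. The median log2 difference was 0.66 over the members and -0.07 over all genes. Only Trpv4 was not tested. CPM values of the 4 Cre libraries lay entirely above those of the 4 no-Cre libraries for 18 members (25.7% of all genes did so) and entirely below for 7 (25.2% of all genes).

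Over all libraries, 28.7% of all genes tested were higher and 31.2% lower with Cre. These shares are to be set beside the counts by disease, by role and for further disease genes below. By disease, 14 of the 28 ALS genes were higher and 5 lower with Cre over all libraries. Axonal Charcot-Marie-Tooth genes numbered 5 higher and 1 lower of 7. Of the 4 tested genes of spinal muscular atrophy and distal motor neuropathy, Plekhg5 was higher, at 0.68 ± 0.24 (adjusted p = 0.0248), and none was lower. The Plekhg5 call was lost when any of 3 libraries, Cre crushed 35, Cre uncrushed 10 or no-Cre crushed 51, was left out, at an adjusted p of 0.0575 to 0.0646.

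Within uncrushed mice 15 members were higher and 5 lower with Cre, 51.3% of the 39 where 42.5% of all genes were called. Within crushed mice 18 were higher and 7 lower, 64.1% where 42.9% of all genes were called. The scaling moved these splits. Library size alone, in place of TMM factors, raised the median difference of all genes by 0.68 in uncrushed and 0.15 in crushed mice, and gave 22 members higher and 2 lower in uncrushed and 18 higher and 3 lower in crushed mice. Over all genes that scaling gave 4753 higher and 1463 lower in uncrushed mice, where TMM gave 3137 and 3331, and 2837 higher and 1922 lower in crushed mice, where TMM gave 3286 and 3235. Without both libraries whose genotype entry contradicts the title, the uncrushed comparison gave 6 higher and 4 lower, with 1 library in each arm that was assumed to vary like those of the other groups. Over all libraries the counts without them were 21 higher and 6 lower.

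The same 15 genes were higher in uncrushed and in crushed mice: Matr3, Elp3, Vcp, Optn, Sqstm1, Ubqln2, Lrsam1, Vapb, Chmp2b, Rab7, Sod1, Chchd10, Mfn2, Pfn1 and Hint1. Tia1, Spg11, Dnm2, Nek1 and Erbb4 were lower in both. Some of these calls rested on the fit. In uncrushed mice the Mfn2 call was lost in 10 of 14 alternatives, DESeq2 (adjusted p = 0.0542) and the omission of any uncrushed library among them (0.0544 to 0.158). The Pfn1 call was lost there in 5, with any uncrushed library or both contradictory libraries left out (0.0751 to 0.184). The Spg11 call was lost in 8 of 14 alternatives in uncrushed mice (adjusted p up to 0.576) and in 9 of 14 in crushed mice (up to 0.321, and 0.0633 with DESeq2). Hnrnpa1, Fig4 and Gdap1 were called higher, and Taf15 and Ewsr1 lower, in crushed mice alone. In uncrushed mice, however, Fig4 and Gdap1 were each called in 4 of 14 alternatives, Taf15 in 2 and Hnrnpa1 in 1. The call in crushed mice was lost in 12 of 14 alternatives for Ewsr1, 4 for Taf15 and 2 for Hnrnpa1. The difference between crushed and uncrushed mice in the Cre effect was not called for any of these 5, with an interaction of 1.12 for Fig4 (adjusted p = 0.862), 0.56 for Gdap1 (0.886) and 0.44 for Hnrnpa1 (0.923) on the log2 scale. The other 14 tested members were called in neither.

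**Figure D2:**
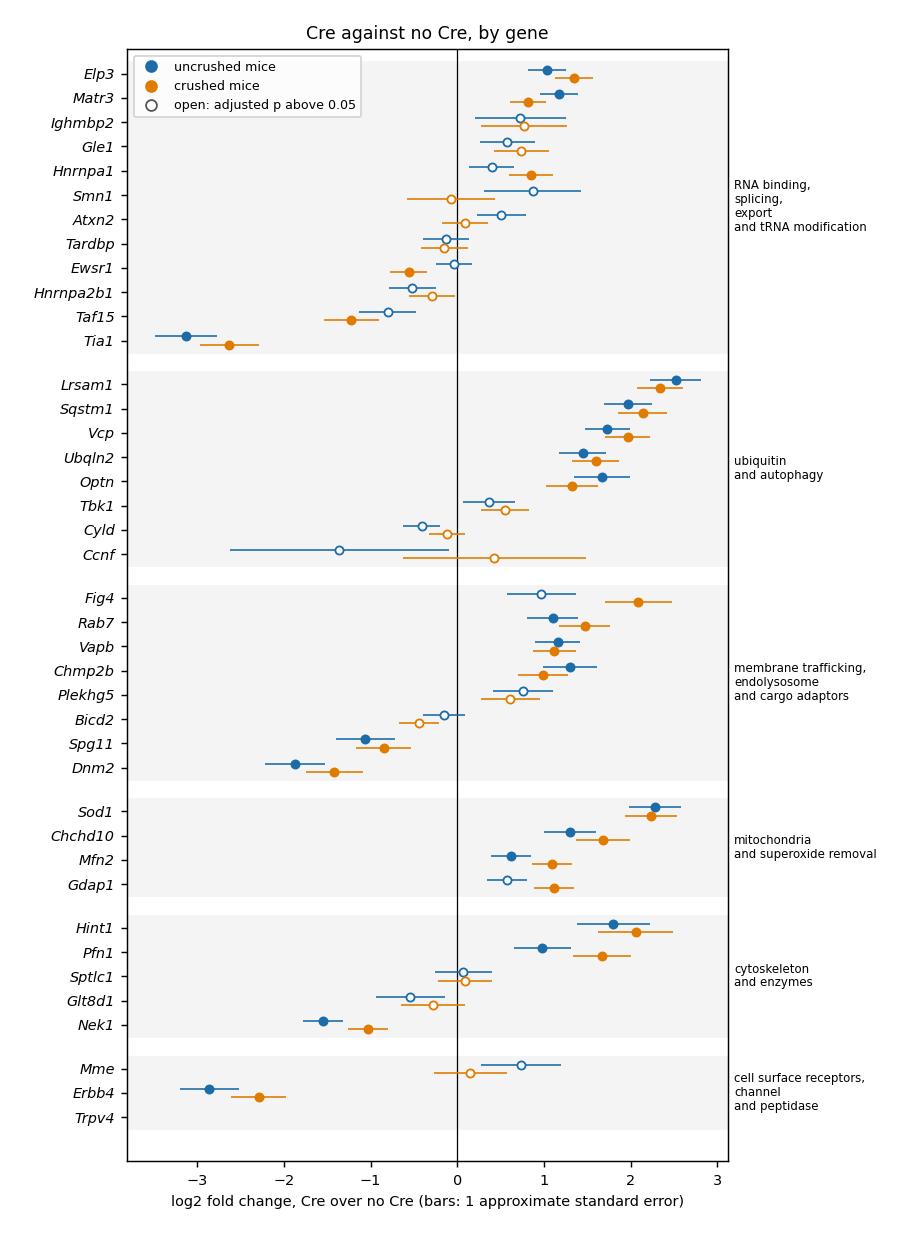
Log2 fold change of Cre over no Cre (horizontal axis) for 39 disease genes in uncrushed (blue) and crushed (orange) mice, with bars of 1 approximate standard error and open symbols where the adjusted p was above 0.05. Values run from -3.13 for Tia1 to 2.52 for Lrsam1 in uncrushed mice, and the mitochondrial and superoxide genes all lie to the right of 0.

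Among the 12 RNA-processing genes, 4 were higher and 2 lower with Cre over all libraries. Tia1, a protein of stress granules that regulates splicing and translation, gave the largest difference of all members. It stood at 8.67 and 12.1 CPM in the Cre uncrushed, 12.98 and 16.5 in the Cre crushed, 123 and 59.6 in the no-Cre uncrushed and 100.02 and 81.8 in the no-Cre crushed libraries. Every Cre library was below every no-Cre library, with a log2 fold change of -2.87 ± 0.25 (7.31-fold lower, adjusted p = 1.7e-06). Elp3, the catalytic subunit of the Elongator complex that modifies tRNA, was at 75.8 and 78.2 CPM in Cre uncrushed, 59.4 and 62.6 in Cre crushed, 32.4 and 41.9 in no-Cre uncrushed and 23.9 and 24.0 in no-Cre crushed libraries. The groups did not overlap, and the change was 1.2 ± 0.16 (adjusted p = 4.63e-05). Matr3 encodes matrin 3, an RNA-binding protein of the nuclear matrix. Its levels were 268 and 232 CPM, 183 and 180.0 CPM, 105 and 116 CPM and 100.3 and 105 CPM in those 4 groups. Again no library overlapped, at 1.00 ± 0.16 (adjusted p = 0.000164).

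Hnrnpa1, which binds nascent transcripts in the nucleus, was also higher (0.63 ± 0.19, adjusted p = 0.0105), as was the mRNA export factor Gle1 (0.66 ± 0.22, adjusted p = 0.0199). The Gle1 call was lost without Cre crushed 35 or without Cre uncrushed 10, at an adjusted p of 0.0585 and 0.0639. Taf15 was lower (-1.01 ± 0.23, adjusted p = 0.00205), and under scaling by library size alone its value was -0.60 and no longer called (adjusted p = 0.114). Taf15 and Ewsr1 are related RNA-binding proteins. Ewsr1 was at -0.31 ± 0.17 (adjusted p = 0.13) over all libraries, and its call in crushed mice sat at the threshold (-0.56 ± 0.21, adjusted p = 0.05).

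The remaining 6 RNA-processing genes, with Ewsr1 among them, were not called over all libraries. Tardbp, whose protein TDP-43 aggregates in most ALS, was at -0.14 ± 0.18 (adjusted p = 0.521) and Hnrnpa2b1 at -0.41 ± 0.19. Hnrnpa2b1 was called lower with DESeq2 (-0.42, adjusted p = 0.0348) and without no-Cre crushed 51 (-0.49, adjusted p = 0.0267). Atxn2, a regulator of mRNA stability, was at 0.30 ± 0.20 and the helicase gene Ighmbp2 at 0.75 ± 0.35. Ighmbp2 was called higher in 5 of 13 alternatives, at 0.86 to 1.2 (adjusted p = 0.0122 to 0.0375), which were library size alone, no filter, and the omission of Cre uncrushed 3, of no-Cre uncrushed 4 or of both. Smn1, whose human counterpart is lost in spinal muscular atrophy, had 89, 56, 104 and 71 counts in Cre uncrushed 3 and 10 and Cre crushed 35 and 52, and 5, 24, 29 and 54 in no-Cre uncrushed 4 and 6 and no-Cre crushed 51 and 58. On the CPM scale these were 5.62 to 8.67 with Cre and 1.95 to 9.00 without, so the groups overlapped, and the difference was not called (0.36 ± 0.39, adjusted p = 0.442). Within uncrushed mice Smn1 was called higher once no-Cre uncrushed 6 was left out (2.09, adjusted p = 0.0459).

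Among the 8 ubiquitin and autophagy genes 5 were higher and none lower, with a median of 1.51. Lrsam1, an E3 ubiquitin ligase mutated in axonal Charcot-Marie-Tooth neuropathy, had the smallest p of all members. It was at 90.5 and 64.7 CPM in Cre uncrushed, 69.4 and 63.6 in Cre crushed, 10.9 and 15.8 in no-Cre uncrushed and 11.9 and 14.3 in no-Cre crushed libraries. The lowest Cre library was thus far above the highest no-Cre library, with a log2 fold change of 2.43 ± 0.19 (5.38-fold, adjusted p = 1.15e-06). Sqstm1, the receptor that delivers ubiquitinated cargo to autophagosomes, was at 229 and 218 CPM, 254 and 254 CPM, 46.4 and 67.6 CPM and 44.5 and 70.8 CPM in the same order of groups. It too separated fully, at 2.05 ± 0.20 (4.15-fold, adjusted p = 3.12e-06). Vcp, an ATPase that pulls ubiquitinated proteins out of complexes and membranes, stood at 286 and 284 CPM in Cre uncrushed, 322 and 262 in Cre crushed, 73.7 and 97.2 in no-Cre uncrushed and 61.2 and 88.3 in no-Cre crushed libraries. Its change was 1.85 ± 0.19 (3.61-fold, adjusted p = 4.39e-06), with no overlap.

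Ubqln2, a shuttle to the proteasome, and Optn, another autophagy receptor, were higher at 1.53 ± 0.19 and 1.49 ± 0.22. Their adjusted p values were 1.99e-05 and 8.2e-05. Tbk1, the kinase that phosphorylates Optn and Sqstm1 proteins, was not called (0.47 ± 0.20, adjusted p = 0.0604), nor was Cyld, a deubiquitinase (-0.26 ± 0.15, adjusted p = 0.151). Tbk1 was called higher with library size alone, with no filter and without no-Cre uncrushed 6, at 0.58 to 0.84 (adjusted p = 0.0102 to 0.0379). Ccnf, a cyclin that serves as a substrate receptor of a ubiquitin ligase, had 2, 4, 18 and 10 counts in the Cre and 1, 5, 9 and 1 in the no-Cre libraries, in the order used for Smn1. Its difference was not called (-0.30 ± 0.82).

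Among the 8 trafficking genes 5 were higher and 2 lower. Dnm2, the dynamin that cuts vesicles from the plasma membrane, had the smallest p of the trafficking genes and was lower. It was at 6.62 and 6.64 CPM in Cre uncrushed, 11.7 and 14.8 in Cre crushed, 18.3 and 29.7 in no-Cre uncrushed and 43.7 and 27.0 in no-Cre crushed libraries. All Cre libraries were lower, at -1.63 ± 0.24 (3.09-fold lower, adjusted p = 8.97e-05). Vapb, which tethers the endoplasmic reticulum to other membranes, was at 203 and 192 CPM, 163 and 149 CPM, 89.7 and 87.1 CPM and 54.8 and 88.8 CPM in that order. The groups were apart at 1.14 ± 0.18 (adjusted p = 0.000127). Rab7, the small GTPase of late endosomes, was at 609.6 and 557 CPM in Cre uncrushed, 652 and 525 in Cre crushed, 296 and 248 in no-Cre uncrushed and 155 and 269 in no-Cre crushed libraries. This separation was also complete, at 1.29 ± 0.21 (adjusted p = 0.000174).

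Fig4, a phosphoinositide phosphatase of endolysosomes, was higher at 1.55 ± 0.32 (adjusted p = 0.00106), and Chmp2b, part of the membrane-cutting ESCRT machinery, at 1.13 ± 0.21 (adjusted p = 0.000538). Spg11, which acts in the renewal of lysosomes, was lower at -0.95 ± 0.23 (adjusted p = 0.00329). With library size alone Spg11 was at -0.57 and not called (adjusted p = 0.158). Bicd2, an adaptor that links cargo to dynein, was at -0.30 ± 0.17 (adjusted p = 0.143), although its 4 Cre values of 51.8 to 57.8 CPM all lay below the no-Cre values of 58.0 to 87.3 CPM.

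All 4 genes of mitochondria and superoxide removal were higher with Cre, with a median of 1.18. Sod1 was at 402 and 371 CPM in Cre uncrushed, 392 and 304 in Cre crushed, 70.6 and 88.7 in no-Cre uncrushed and 54.0 and 93.1 in no-Cre crushed libraries. The lowest Cre value exceeded the highest no-Cre value, and the change was 2.26 ± 0.20 (4.79-fold, adjusted p = 2.33e-06). Chchd10, a protein between the mitochondrial membranes, was at 69.7 and 92.6 CPM, 55.6 and 54.3 CPM, 27.7 and 37.7 CPM and 12.2 and 22.2 CPM. It did not overlap either (1.49 ± 0.21, adjusted p = 7.25e-05). Mfn2, which fuses outer mitochondrial membranes, was at 117 and 125 CPM in Cre uncrushed, 89.4 and 97.8 in Cre crushed, 85.4 and 72.4 in no-Cre uncrushed and 37.6 and 50.3 in no-Cre crushed libraries. Its Cre and no-Cre values came close but did not cross, at 0.86 ± 0.17 (adjusted p = 0.000951). Gdap1, another outer-membrane protein, was higher at 0.85 ± 0.18 (adjusted p = 0.00125).

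Of the 5 cytoskeletal and other enzyme genes 2 were higher and 1 lower. Nek1, a kinase with roles in DNA repair and cilia, was at 22.0 and 21.6 CPM in Cre uncrushed, 34.5 and 26.5 in Cre crushed, 63.6 and 64.1 in no-Cre uncrushed and 66.2 and 58.5 in no-Cre crushed libraries. All Cre values were below the no-Cre values, at -1.28 ± 0.18 (2.43-fold lower, adjusted p = 5.2e-05). Hint1, a hydrolase of nucleotide conjugates, was at 180 and 219 CPM, 106 and 78.6 CPM, 56.5 and 58.0 CPM and 10.2 and 34.6 CPM. It was higher by 1.93 ± 0.29 (3.8-fold, adjusted p = 0.000101) without overlap. Pfn1, the actin-binding protein profilin, was at 79.9 and 87.8 CPM in Cre uncrushed, 97.8 and 70.5 in Cre crushed, 40.9 and 43.8 in no-Cre uncrushed and 16.8 and 36.5 in no-Cre crushed libraries. It was also higher throughout (1.33 ± 0.24, adjusted p = 0.000452). Sptlc1, a subunit of the first enzyme of sphingolipid synthesis, was at 0.08 ± 0.23 and the glycosyltransferase gene Glt8d1 at -0.40 ± 0.27, neither called.

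At the cell surface Erbb4, the neuregulin receptor, was lower with Cre. It was at 7.89 and 7.81 CPM in Cre uncrushed, 9.11 and 17.1 in Cre crushed, 48.7 and 65.2 in no-Cre uncrushed and 71.0 and 56.6 in no-Cre crushed libraries. No Cre library came near a no-Cre library, at -2.56 ± 0.24 (5.89-fold lower, adjusted p = 2.66e-06). Mme, the membrane peptidase neprilysin, was at 19.5 and 8.07 CPM, 14.8 and 16.5 CPM, 5.85 and 10.4 CPM and 16.96 and 11.2 CPM. Its groups overlapped, and it was not called (0.42 ± 0.31, adjusted p = 0.261). Trpv4, a calcium-permeable channel, had 1, 0, 4 and 5 counts with Cre and 0, 3, 2 and 3 without, too few for a test.

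Of 42 tested genes on a second list of motor neuron disease and axonal neuropathy genes, 31 were higher and 4 lower with Cre over all libraries, with a median of 1.43. The 3 with the smallest p among those higher were Slc5a7, the choline transporter (4.14 ± 0.20), and the chaperone partners Hspb8 (3.59 ± 0.18) and Bag3 (3.55 ± 0.18). All 3 had an adjusted p of 1.15e-07. Slc5a7, like Prph on the same list, is also among the 9 cholinergic and motor neuron markers that guided the grouping by title. The differences of Slc5a7 and Prph are thus not independent of that grouping. Those lower included the angiogenin gene Ang, with 1, 0, 4 and 2 counts in the Cre libraries and 1, 16, 7 and 8 in the no-Cre libraries (adjusted p = 0.00739), and Morc2a, a chromatin ATPase (-0.53 ± 0.18, adjusted p = 0.0196). Of 14 demyelinating Charcot-Marie-Tooth genes, none was higher and 9 were lower, with a median of -2.16. Among those lower were Sbf2 (-2.37 ± 0.22) and Ndrg1 (-2.21 ± 0.21), with adjusted p values of 2.79e-06 and 3e-06. Schwann cell and oligodendrocyte markers were lower with Cre in the same libraries, as given above.

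The second comparison asked whether nerve crush changed the disease genes on tagged ribosomes. None of the 39 tested members was called in the Cre libraries, where 0.0723% of all genes were called, 11 of 15208 (0.0395% higher and 0.0329% lower). At an unadjusted p under 0.05 there were 4 members (10.3%), where 9.34% of all genes had such a p. Those 4, named after their values were seen, were Dnm2 (0.99 ± 0.34, adjusted p = 0.393), Erbb4 (0.73 ± 0.32, adjusted p = 0.519), Plekhg5 (-0.77 ± 0.33, adjusted p = 0.514) and Hint1 (-1.11 ± 0.41, adjusted p = 0.431). The median over the members was -0.15, and 0.03 over all genes. DESeq2 called 0 members. In the same libraries, 6 axon injury genes summed to 134 and 151 CPM in Cre uncrushed and 519 and 365 in Cre crushed libraries, and 3 of the 6 were called higher. Summed oligodendrocyte markers were also 720 and 889 CPM in Cre uncrushed and 1118 and 1854 in Cre crushed libraries, with none of the 8 called, and their part in these values was not tested.

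Hint1 was the only member called after crush under any alternative run. Its Cre crushed values of 106 and 78.6 CPM were below both Cre uncrushed values of 180 and 219 CPM. In a fit of the Cre libraries alone it was called lower (-1.11, adjusted p = 0.0449), and likewise without a filter on low counts (-1.08, adjusted p = 0.0157). In the no-Cre libraries its difference was not called, -1.34 ± 0.47 (adjusted p = 0.617), with values of 56.5 and 58.0 CPM before and 10.2 and 34.6 CPM after crush. It was called there once no-Cre crushed 58 was left out (-2.45, adjusted p = 0.002). The interaction for Hint1 was 0.26 (adjusted p = 0.984).

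In the 4 no-Cre libraries none of 38 tested members was called after crush, where 0.0149% of all genes were, 2 of 13394. Again 4 had an unadjusted p under 0.05 (10.5%, against 7.64% of all genes). Besides Hint1 these were Atxn2 (0.90 ± 0.34, adjusted p = 0.635), Chchd10 (-0.91 ± 0.40, adjusted p = 0.646) and Mfn2 (-0.82 ± 0.31, adjusted p = 0.642), named after their values were seen. For the difference between the crush effects with and without Cre, 0 members were called, as were 0% of all genes. No member had an unadjusted p under 0.05 there, and 5.95% of all genes did. DESeq2 also called 0 members in both comparisons. With 2 animals a group, a call that is missing does not show that a gene did not change. The approximate standard errors of the crush effect with Cre ran from 0.20 for Cyld to 1.11 for Ccnf.

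**Figure D3:**
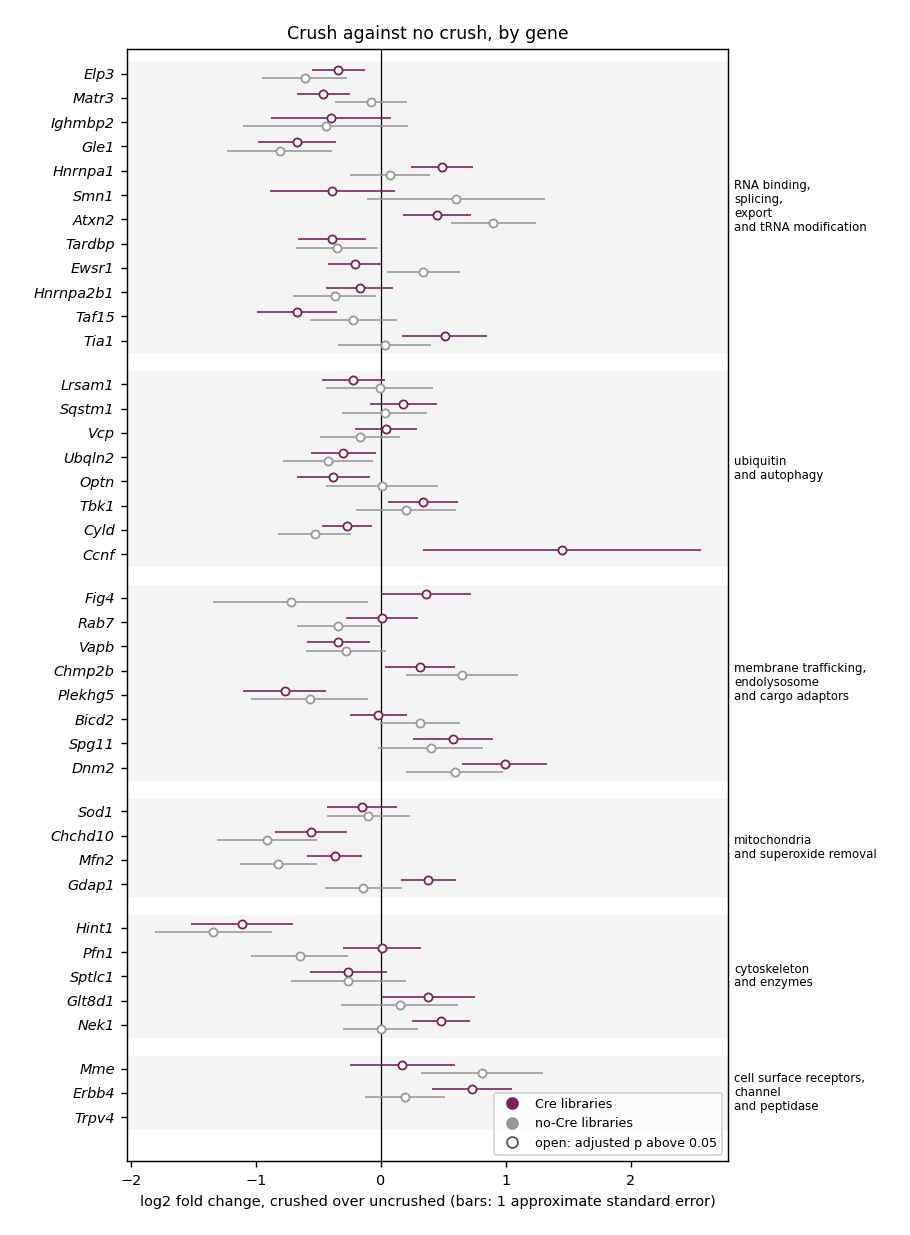
Log2 fold change of crushed over uncrushed (horizontal axis) for the disease genes in Cre (purple) and no-Cre (grey) libraries, with bars of 1 approximate standard error. All symbols are open, since no member had an adjusted p of 0.05 or less, and Hint1 is the lowest in both, at -1.11 and -1.34. Ccnf was tested with Cre only and Trpv4 in neither.

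The deposited tables also give a mean transcript length for each gene and library, which RSEM weights by the estimated abundance of the gene's transcripts, so that a shift in this value follows a shift in the mix of transcripts counted. It was compared for 25 members with at least 50 counts in every library, a minimum set after the data had been seen. Lengths did not overlap between the 4 Cre and the 4 no-Cre libraries for 10 of them (40%), 7 longer and 3 shorter with Cre, where 17% of 4582 genes did not overlap (11.1% longer, 5.94% shorter). These are counts without a test.

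Atxn2 differed most among the longer ones, at 2712, 3218, 2582 and 2384 bases in Cre uncrushed 3 and 10 and Cre crushed 35 and 52, and 1302, 1595, 1683 and 1389 in no-Cre uncrushed 4 and 6 and no-Cre crushed 51 and 58. The mean was thus 1.83 times as long with Cre, although the gene's counts were not called different. Counts were tested without correction for transcript length. For genes whose length shifted, the log2 fold changes therefore mix level with length. Of the Atxn2 transcripts listed in the tables, 6 are retained-intron transcripts of 482 to 1468 bases in GENCODE M21, matched by identifier, and the longest coding transcript there has 4472 bases. Gle1 was at 3890, 3812, 3522 and 3580 bases with Cre and 3384, 2542, 2469 and 2162 without (ratio 1.40). It has 1 coding transcript of 4030 bases in that annotation and 6 retained-intron transcripts of 371 to 931 bases. Ewsr1 was at 2037 to 2179 bases with Cre and 1377 to 1704 without (ratio 1.37), and Nek1 at 3939 to 4850 and 2835 to 3703 (ratio 1.28). Vcp, Gdap1 and Taf15 were longer with Cre by ratios of 1.2, 1.12 and 1.12. Ewsr1 and Vcp have no retained-intron transcript in that annotation. Their short noncoding entries are 8 processed transcripts of 185 to 1033 bases for Ewsr1 and 4 of 539 to 894 bases for Vcp.

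Vapb went the other way, at 3835, 3103, 3024 and 3038 bases with Cre and 5326, 4042, 6255 and 5474 without (ratio 0.62). Vapb has 1 coding transcript of 7029 bases and 1 processed transcript of 527 bases in GENCODE M21. Hnrnpa2b1 (ratio 0.92) and Bicd2 (0.91) were shorter with Cre by less, and both have only coding transcripts there, 3 each. Leaving out libraries, or lowering the count minimum, cannot make lengths overlap that lie apart in all 8 libraries. Such settings therefore could not test these 10 genes. With a minimum of 20 counts, 10 of 34 members did not overlap, where 14.6% of 7628 genes did not. With a minimum of 100 counts, 9 of 18 members did not overlap. Which transcripts account for each shift was not tested, and no source used here gives the strand setting of the counting.

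**Figure D4:**
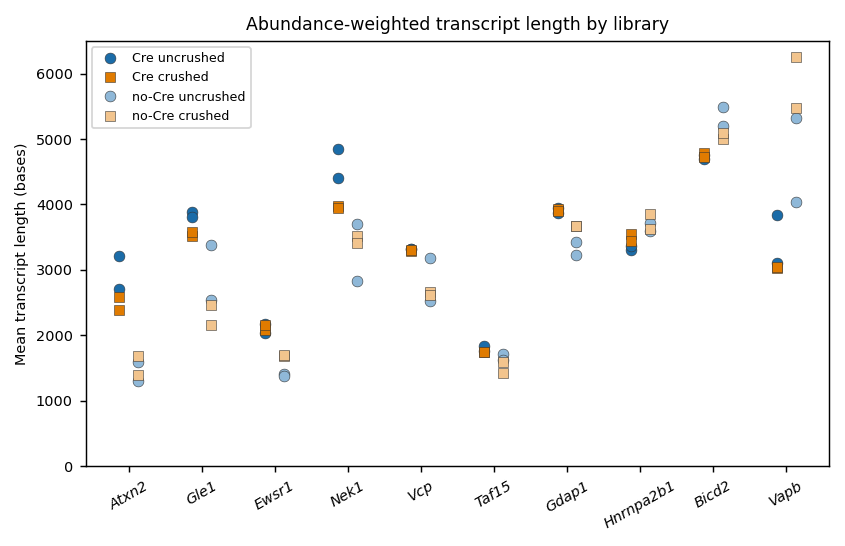
Mean transcript length in bases (vertical axis, from 0) in each of the 8 libraries for the 10 disease genes whose Cre and no-Cre libraries did not overlap, ordered by the ratio of Cre to no-Cre length. Atxn2 is at 2384 to 3218 bases with Cre and 1302 to 1683 without, and Vapb is reversed, at 3024 to 3835 and 4042 to 6255.

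Some members share sequence with other genes, so that their counts can depend on how RSEM divided the reads. Over windows of 50 bases in GENCODE M21 transcripts, 40.5% of Vcp windows also occur in Vcp-rs, 28.2% of Hnrnpa1 windows in other genes (most in Gm10052), 16.6% of Matr3 windows, 12% of Ewsr1 windows, 11.2% of Rab7 windows and 8.06% of Spg11 windows. On the opposite strand, 20% of Tardbp windows lie in other genes (most in Masp2), 15.5% of Sqstm1 windows (Mrnip), 11.1% of Hnrnpa1 windows (Gm16216), 10.8% of Spg11 windows (Eif3j1), 7.09% of Chchd10 windows (Mmp11), 6.04% of Rab7 windows (Gm5577) and 5.39% of Vcp windows (1700022I11Rik). The other members were under 5% on each strand. Without a stated strand setting, reads from opposite-strand pairs cannot be told apart. The levels of the genes listed for the opposite strand are uncertain in that respect.

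Counts of the partner gene on the same strand were compared for Vcp, Spg11 and Hnrnpa1. For Matr3, Ewsr1 and Rab7, the partners Gm28285, Gm6627 and Rab7-ps1 were not matched to a counted gene, so no such comparison was made. RSEM gave Vcp-rs 0 to 6 counts in any library, at most 0.78 CPM beside 284 CPM of Vcp, so adding the partner hardly moved Vcp. Gm3650 had 0 to 18 counts, at most 2.44 CPM beside 22.8 CPM of Spg11 in no-Cre crushed 51. For Hnrnpa1 the sum differed more. Gm10052 was given 168 and 270 counts in Cre uncrushed, 16 and 25 in no-Cre uncrushed and 0 in each of the 4 crushed libraries. Hnrnpa1 alone was at 99.6 and 88.2 CPM in Cre uncrushed and 144 and 120 CPM in Cre crushed libraries, which do not overlap. The sum of both genes was at 116 and 123 CPM in Cre uncrushed and 144 and 120 CPM in Cre crushed libraries, which do overlap. Without Cre the sum was at 89.3 and 66.0 CPM in uncrushed and 61.8 and 85.0 CPM in crushed libraries, so that Cre libraries stayed above no-Cre libraries.

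**Figure D5:**
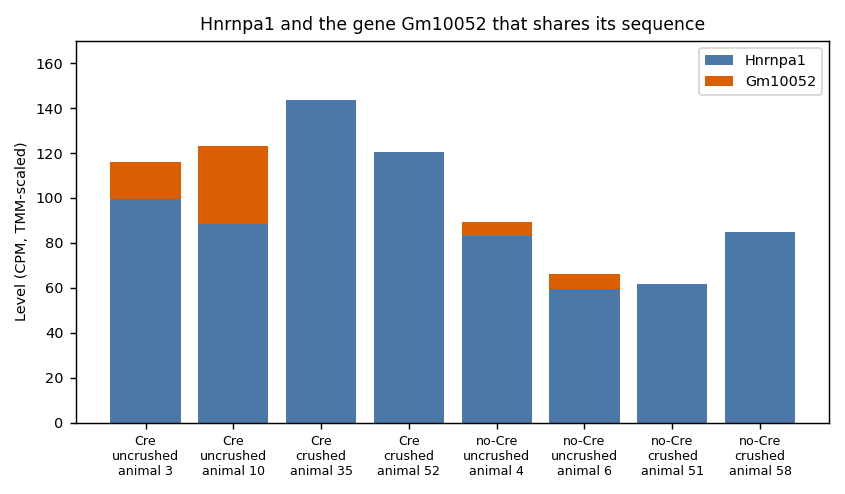
Levels of Hnrnpa1 (blue) and of Gm10052 (orange), which shares part of its sequence, stacked for each of the 8 libraries in CPM from 0. Gm10052 is present in the 4 uncrushed libraries, with the most in Cre uncrushed 10, and at 0 in the 4 crushed libraries.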

How the data were processed

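Ribosome-associated RNA was analysed from 8 mouse spinal cord precipitates. Per the submitters' processing notes, the authors used Bowtie2 2.2.0 and RSEM 1.2.12. The sources used here give no genome build, annotation or strand setting. The deposited expected counts, RSEM's unscaled read estimates for each gene, were rounded before testing. The deposited TPM values are scaled by the authors' RSEM run for transcript length and depth. The deposited lengths are abundance-weighted transcript lengths in bases. Symbols were matched for 37607 of 38924 Ensembl identifiers (96.6%), including 40 of 40 members. Of the further disease genes, Mpv17 was not matched.

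Libraries were grouped by title. Counts were tested with edgeR 4.0.16 in R 4.3.3 by quasi-likelihood tests (two-sided, Benjamini-Hochberg adjusted over all genes tested, threshold 0.05), after filterByExpr (minimum count 10, minimum total 15) and TMM scaling. No term for transcript length was used. The fit had 1 mean per group over all 8 libraries (15208 genes, 4 residual degrees of freedom). Cre against no Cre over all libraries had crush as a covariate (5 degrees of freedom), and crush without Cre used the 4 no-Cre libraries (13394 genes, 2 degrees of freedom). That contrast was fitted apart because no-Cre libraries varied more and an earlier simulation with shared spread gave many false calls for it. All other comparisons used a spread shared by all 8 libraries. Approximate standard errors come from the log2 fold change and the F statistic (their ratio after taking the root of F). CPM uses TMM-scaled totals, floors cover counting error only, and p-values measure the spread between these animals. With totals of 4826979 to 11522721 counts, genes of a few counts a library, such as Ccnf and Trpv4, are imprecise.

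The members and lists were chosen with earlier results of these data known. Values in every library are given for members called after crush, the 3 smallest p per role in the all-library Cre comparison and members with under 10 counts in a library; of further disease genes, the 3 called with the smallest p in each direction, apart from some that are not reported here. Alternatives were DESeq2 1.42.0, its size factors in edgeR, library size alone, no filter, another choice of libraries in the fit, both libraries with contradictory genotype entries left out, and each library left out in turn. The scripts were tested on simulated data. Promoters came from RefSeq (GRCm38.p6) and shared sequence and transcript classes from GENCODE M21. GENCODE M21 differs from the authors' annotation for some members. Hnrnpa2b1 had deposited lengths of 3304 to 3850 bases, and its longest coding transcript in GENCODE M21 has 1728. Matr3, with 1 listed transcript, had a deposited length of 4472 bases, and 6262 in GENCODE M21. Transcript lengths and shared windows from GENCODE M21 may thus not be those of the transcripts counted.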

Additional observations from a re-analysis of the deposited data

How the results depend on the processing

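Of 156 counts of members called under alternatives, 147 stayed within 1.5 times of the main count and 9 did not. In uncrushed mice, 6 members were higher with Cre without both libraries with contradictory genotype entries (15 with them), and 2 were lower with library size alone (5 with TMM). In crushed mice, 3 were lower with Cre with library size alone (7 with TMM), and leaving out 1 library gave 3 to 6, with 3 without Cre crushed 35, without Cre crushed 52 or without no-Cre crushed 51. After crush with Cre, 1 member (Hint1) was lower with no filter on low counts and 1 (Hint1) in a fit of the Cre libraries alone, where the main count was 0. After crush without Cre, leaving out 1 library gave 0 to 1 lower, the 1 being Hint1 without no-Cre crushed 58. The cause of these shifts was not tested, beyond the smaller number of libraries in some fits. No called member changed direction under any alternative run. Calls held under every alternative for 22 of 26 members over all libraries, 7 of 20 in uncrushed and 17 of 25 in crushed mice. Over all libraries those lost in some fit were Taf15, Gle1, Spg11 and Plekhg5, while Ewsr1 (12 of 14) and Spg11 (9) in crushed mice and Mfn2 (10) and Spg11 (8) in uncrushed mice lost theirs in most. Scaling by library size alone moved the median of all genes by 0.41 for Cre over all libraries, 0.44 for crush with Cre, 0.94 for crush without Cre and -0.53 for the interaction. Counts over all genes moved more. With Cre against no Cre, leaving out 1 library gave 2009 to 3468 higher and 1793 to 3068 lower in uncrushed mice (lowest without Cre uncrushed 3), and 1745 to 3903 higher and 988 to 3492 lower in crushed mice (lowest without Cre crushed 35). Without both contradictory libraries the uncrushed comparison gave 1685 and 1614, and over all libraries 3006 were lower with library size alone (4738 with TMM). After crush with Cre, 6 higher and 5 lower became 104 and 55 with DESeq2, 188 and 93 with no filter, 49 and 77 when only Cre libraries were fitted and 2 and 3 without both contradictory libraries. After crush without Cre, 0 and 2 became 7 and 52 with DESeq2, 31 and 90 with no filter, 90 and 6 with library size alone, 3 and 8 in a fit of all libraries, 4 and 27 without the contradictory library, and 4 to 35 and 25 to 93 with 1 library left out. The interaction, at 0 and 0, became 9 and 6 with DESeq2 and 49 and 38 with no filter. Fits that left 1 library in a group assumed that it varied like the other groups. No paired analysis was possible because the animal numbers in the titles differ between all 4 groups. Depth was lowest for Smn1, Ccnf and Trpv4, with fewer than 10 counts in some library.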
